A study of Mus musculus with 16 samples.

Results

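The transcripts of the Tcl1 family were followed through oocyte maturation in WT and Psma7 cKO mice. The 6 genes, Tcl1 and Tcl1b1 to Tcl1b5, were taken by name from a table of 28618 entries under 27987 gene names, where they hold 10 entries. Tcl1 and Tcl1b4 have 1 entry each and the other members have 2, of which 1 is high and the other near 0. The table does not say which transcript or locus an entry stands for, so a gene name below stands for the higher entry, and the lower ones are given apart.

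The 16 libraries form 4 groups of 4: WT GV oocytes, Psma7 cKO GV oocytes, WT MII eggs and Psma7 cKO MII eggs. Each library was made by Smart-seq2, a full-length cDNA method for small inputs, from a pool of 5 oocytes according to the labels, while the methods text gives a different pool size. Females on a C57BL/6 background were 3 to 4 weeks old and all received 5 IU of PMSG, which stimulates follicle growth. GV oocytes, arrested before the first meiotic division, were taken 44 h later. MII eggs, arrested in the second division, were ovulated with hCG and flushed from the oviduct 14 to 16 h after it. Their cumulus cells were digested with 0.3% hyaluronidase. The study reported that part of the ovulated cKO oocytes lacked a first polar body, stayed at the GV stage or stopped in telophase I. The labels call these pools MII. A mixture of meiotic stages in cKO MII pools cannot be told apart from a genotype effect here. The cKO females carried floxed Psma7 alleles and Zp3-Cre, a transgene that is active in growing oocytes and leaves the follicle cells unrecombined. WT libraries are labelled wildtype only, so the Cre transgene and the deletion cannot be told apart.

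TCL1 proteins are small beta-barrel cofactors that bind the pleckstrin homology domain of the kinase Akt and raise its activity. Human TCL1A is known as an oncogene of T-cell leukemia, and mouse Tcl1 is a maternal-effect gene needed for normal cleavage of the early embryo. In the mouse, the Tcl1b genes are a local expansion next to Tcl1, and their transcripts are known from oocytes and early embryos.

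In GENCODE M21 (GRCm38) the family filled 76.8 kb at chr12:105146014-105222793. Tcl1b2, Tcl1b1, Tcl1b5, Tcl1b3 and Tcl1b4 followed each other on the plus strand, and Tcl1 lay last, on the minus strand. Every member had 4 exons in the transcript used, with a coding length of 116 codons in Tcl1 and Tcl1b1, 117 in Tcl1b2, 120 in Tcl1b4, 121 in Tcl1b5 and 122 in Tcl1b3. Transcripts of the Tcl1b genes were 85.6% to 93.3% identical to each other and 62.8% to 63.9% identical to Tcl1. The closest pair was Tcl1b3 and Tcl1b5, which lie side by side. Their last 60 coding bases (GRCm38, without the stop codon) are shown because this pair, the most alike in sequence, differed in level and in the genotype values below, and capitals mark the 5 bases of Tcl1b3 that differ from Tcl1b5.
Tcl1b5: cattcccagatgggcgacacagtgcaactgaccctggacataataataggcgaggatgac
Tcl1b3: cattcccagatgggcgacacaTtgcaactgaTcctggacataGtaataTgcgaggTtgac

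Such likeness bears on every Tcl1b level below. Of all 50-base windows, 34.1% of those in Tcl1b3, 31.4% in Tcl1b2, 20.8% in Tcl1b5, 13.0% in Tcl1b1 and 4.28% in Tcl1b4 also occurred unchanged in another member, against 0% in Tcl1. At 100 bases the share fell to 9.23% in Tcl1b2, 9.09% in Tcl1b3 and 1.46% in Tcl1b5. The read length and the handling of reads with several matches are not given in the sources used here, so the split of reads among the Tcl1b genes is uncertain, and the value of Tcl1 is not touched by it.

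The upstream sequences of the Tcl1b genes were also alike, at 92.0% to 99.2% identity over the aligned parts of the 250 bases before the start (RefSeq, GRCm38.p6). The 70 bases that hold the E-boxes of 4 members are shown because these stretches belong to genes whose transcripts move together. Capitals mark the 6-letter E-box CACCTG, read on either strand. The 4 stretches lie at chr12:105146935-105147004 (Tcl1b2), chr12:105159606-105159675 (Tcl1b1), chr12:105176260-105176329 (Tcl1b5) and chr12:105190945-105191014 (Tcl1b3), all on the plus strand.
Tcl1b2: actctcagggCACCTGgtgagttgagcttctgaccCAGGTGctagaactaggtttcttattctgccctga
Tcl1b1: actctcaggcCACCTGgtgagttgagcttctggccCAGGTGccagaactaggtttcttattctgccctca
Tcl1b5: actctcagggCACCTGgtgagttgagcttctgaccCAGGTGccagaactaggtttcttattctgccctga
Tcl1b3: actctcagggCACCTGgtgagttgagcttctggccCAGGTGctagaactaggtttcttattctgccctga

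CACCTG occurred in the 250 bases before the RefSeq start of all 6 members, at 2 places in each Tcl1b gene and at 1 in Tcl1. It was in 17.2% of 32851 windows of the same length. This spelling was added after the sequences were seen and is a case of CANNTG, the general E-box bound by the oocyte factor FIGLA with its partner, which 66.2% of windows held. TAATTG and TAATTA, which the oocyte homeobox factor NOBOX binds, were in 0 members and in 7.17% and 4.84% of windows. TATAAA, the TATA box, was in 0 members and in 12.4% of windows. A match is a description of the letters and not a site of binding. Not all of these bases are upstream in GENCODE M21. The stretches around the E-boxes of Tcl1 and Tcl1b4 overlap annotated exons there and are not shown. That of Tcl1b2 lies inside its gene, which starts at 105146014 in GENCODE.

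**Figure D1:**
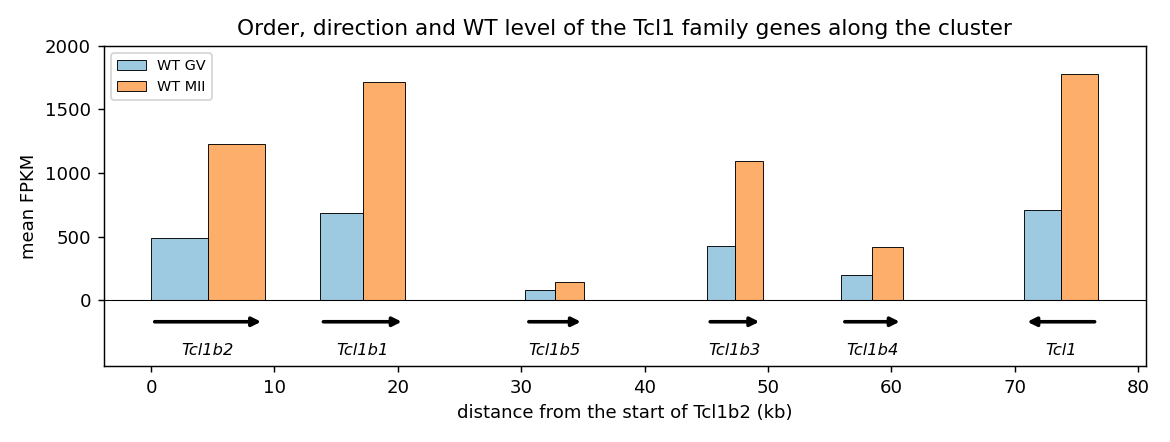
The 6 genes along the cluster, with distance from the start of Tcl1b2 in kb on the horizontal axis and mean FPKM over 4 libraries on the vertical axis. Each gene's span is divided between a bar for WT GV oocytes (left) and a bar for WT MII eggs (right), and arrows give the direction of transcription. Tcl1b5, at 80.3 and 139.6 FPKM, is the lowest and lies between higher members.

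Values are FPKM, fragments per transcript length and per mapped fragments of the library, so a level is a share of a library corrected for length. In pools of cells a smaller number of cells and less RNA per cell cannot be told apart, and RNA amounts per oocyte were not measured by this unit. The cDNA was primed with oligo-dT. Length of the poly(A) tail was not measured, so its part in a level cannot be told apart from the amount of RNA. Depth, estimated from the steps of the FPKM values, was 10.5 to 15.9 M fragments per library, and correlations between libraries of a group lay between 0.965 and 0.992. Psma7, the targeted gene, was at 11.1 to 17.98 FPKM in cKO GV oocytes against 142 to 201 in WT GV oocytes, and at 13.6 to 59.9 in cKO MII eggs against 97.7 to 172 in WT MII eggs, with no overlap. All 10 oocyte markers were present. They summed to 13784 to 13953 FPKM in WT GV oocytes and 13518 to 14402 in cKO GV oocytes. In MII eggs the sums were 8321 to 10653 FPKM in WT and 10204 to 11806 in cKO. The 14 cumulus and granulosa markers summed to 12.2 to 14.3 FPKM in WT GV oocytes, 14.7 to 17.4 in cKO GV oocytes, 17.2 to 21.2 in WT MII eggs and 19.1 to 20.7 in cKO MII eggs, with 12 of 14 below a mean of 1 FPKM in each group and 3 to 6 at 0. Most of that sum was Cyp19a1 and Kitl, at means of 8.10 and 3.86 FPKM in WT GV oocytes and 13.5 and 5.87 in WT MII eggs, while Fshr had means of 0.482 and 0.0232 and Inha 0.146 and 0.0105. Their part in the results was not tested. Of 9 markers of lymphoid and blood cells, which can express Tcl1, 7 were listed, and their sums were 78.7 to 96.4, 78.3 to 95.7, 132 to 153 and 119 to 139.8 FPKM in the same groups. Nearly all of that sum was Ms4a1. Cd4 averaged 0.969 and 1.22 FPKM in WT and cKO GV oocytes and 0.469 and 0.703 in WT and cKO MII eggs, Hba-a1 was at most 0.136, and Ptprc, Cd79a and Cd3e were at most 0.0373 by group mean.

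The family was among the most abundant transcripts of the oocyte. Summed over all entries it made up 0.639% ± 0.0474 (SD, n = 4) of the FPKM of a library in WT GV oocytes and 0.614% ± 0.0660 in cKO GV oocytes, and 1.61% ± 0.115 in WT MII eggs and 1.62% ± 0.127 in cKO MII eggs. By mean level Tcl1 ranked 68 of 28618 entries in WT GV oocytes and 32 in WT MII eggs, and Tcl1b1 ranked 72 and 35. Tcl1b5, the lowest member, ranked 960 and 446.

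Tcl1, the founding member, measured 646, 678, 799 and 719 FPKM in the 4 WT GV libraries and 747, 608, 652 and 706 in the 4 cKO GV libraries. In MII eggs it measured 1933, 1867, 1652 and 1670.2 FPKM in WT and 1797, 1867, 1535 and 1639 in cKO. Every MII library was above every GV library, and WT and cKO ranges overlapped at both stages.

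Tcl1b1, whose level was closest to that of Tcl1, measured 724, 573, 792 and 668 FPKM in WT GV oocytes and 716, 702, 507 and 746 in cKO GV oocytes. In MII eggs its values were 1605, 2027, 1745 and 1491 FPKM in WT and 1905, 2138, 1799 and 1913 in cKO. The stages were apart and the genotypes overlapped, although all 4 cKO MII libraries exceeded every WT MII library but replicate 2.

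Tcl1b2 ranged from 423 to 592 FPKM in WT GV oocytes, 350.3 to 525 in cKO GV oocytes, 1034 to 1425 in WT MII eggs and 1070.4 to 1309.9 in cKO MII eggs. Tcl1b3 ranged from 391 to 466, 362 to 514, 1047 to 1143 and 1098 to 1232 FPKM in the same order of groups. Tcl1b4 ranged from 168 to 215, 153 to 189, 376 to 470.5 and 354 to 437 FPKM. For these 3 genes, too, the stages did not overlap and the genotypes did.

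Tcl1b5 was the exception in GV oocytes. It measured 83.4, 82.4, 79.5 and 75.9 FPKM in WT and 60.7, 59.96, 46.1 and 65.1 in cKO, so that every cKO library lay below every WT library. How many entries outside the family had genotypes apart in this way was not counted. In MII eggs it measured 132, 148, 145 and 133 FPKM in WT and 178, 151, 139 and 157 in cKO, where the ranges overlapped and 3 of 4 cKO libraries were above the highest WT library.

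**Figure D2:**
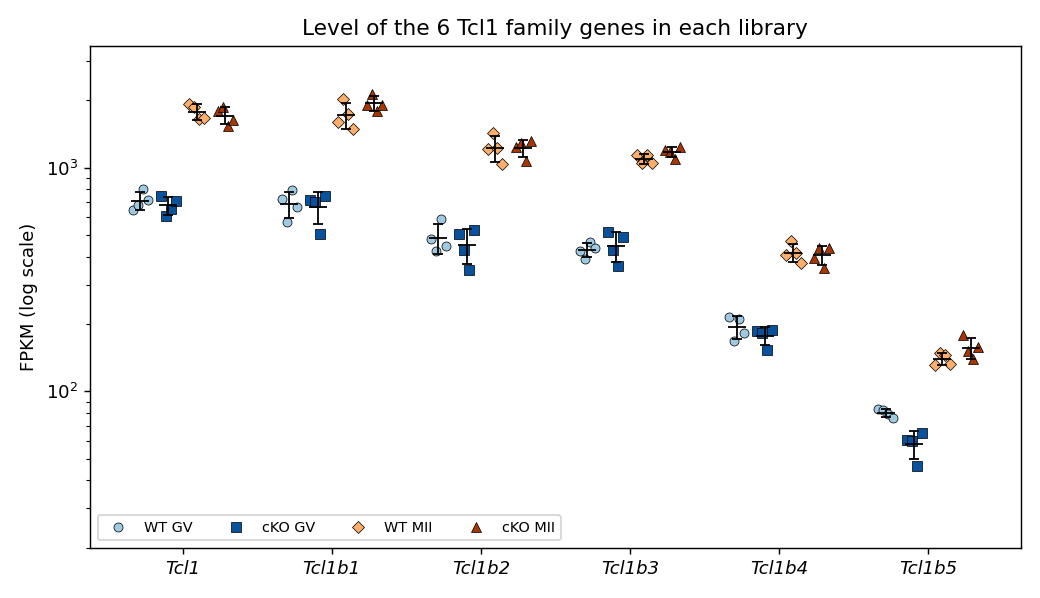
FPKM of the 6 genes (log axis) in each of the 16 libraries, with the mean and SD of the 4 libraries of a group as bars. For every gene the MII eggs lie above the GV oocytes, and Tcl1b5 is the gene whose WT GV and cKO GV points are apart, at means of 80.3 and 58.0 FPKM.

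The order of levels was Tcl1, Tcl1b1, Tcl1b2, Tcl1b3, Tcl1b4 and Tcl1b5 in WT GV oocytes, cKO GV oocytes and WT MII eggs. Means in WT GV oocytes were 711 ± 66.2, 689 ± 92.3, 486 ± 74.4, 429.7 ± 31.3, 194 ± 22.8 and 80.3 ± 3.35 FPKM (SD, n = 4). The ranges of Tcl1 and Tcl1b1 overlapped in every group, as did those of Tcl1b2 and Tcl1b3, while Tcl1b1 and Tcl1b2 overlapped in GV oocytes only. Within a library, Tcl1b2 was above Tcl1b3 in 4 of 4 WT GV, 2 of 4 cKO GV, 3 of 4 WT MII and 3 of 4 cKO MII libraries. Tcl1b4 was below Tcl1b3, and Tcl1b5 below Tcl1b4, with no overlap in every group.

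In cKO MII eggs the first places changed over: Tcl1b1 was above Tcl1 in 4 of 4 libraries, at a ratio of 1.14 ± 0.0520, against 2 of 4 libraries and 0.966 ± 0.124 in WT MII eggs. Tcl1b1 held 29.3% ± 0.966 of the family's FPKM in cKO MII eggs and 26.9% ± 1.80 in WT MII eggs. The ranges of Tcl1 and Tcl1b1 still overlapped there, at 1535 to 1867 and 1799 to 2138 FPKM, and the ratio was not tested.

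The family's share of the libraries was higher in MII eggs, while most transcripts lost share. From GV oocytes to MII eggs, Tcl1 rose 2.51-fold in WT and 2.52-fold in cKO. The Tcl1b genes rose 1.74-fold (Tcl1b5) to 2.55-fold (Tcl1b3) in WT and 2.29-fold (Tcl1b4) to 2.90-fold (Tcl1b1) in cKO. Of the entries with a mean of at least 1 FPKM, 7 of 8 passed as higher in WT and 7 of 7 in cKO (limma with an intensity trend, Benjamini-Hochberg adjusted p below 0.05). Of all entries tested, 26.1% were higher and 52.4% lower in WT, and 23% were higher and 51% lower in cKO. The median log2 fold change over the 6 genes was 1.32 in WT and 1.42 in cKO, against −0.44 and −0.42 over all entries tested.

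The log2 fold change of Tcl1 was 1.33 in WT (SE 0.09, adjusted p = 2.26e-07 by limma) and 1.33 in cKO (SE 0.10, adjusted p = 4.22e-06). Tcl1b1, Tcl1b2 and Tcl1b3 changed by 1.32, 1.34 and 1.35 on the log2 scale in WT and by 1.55, 1.45 and 1.40 in cKO. Tcl1b4 rose less, by 1.11 and 1.19. Tcl1b5 rose by 0.80 in WT (SE 0.07, adjusted p = 2.26e-06 by limma) and by 1.44 in cKO (SE 0.12, adjusted p = 9.41e-06). Each of the 6 genes also reached the smallest p that 4 libraries against 4 allow in a two-sided exact permutation test, 0.0286 over 70 arrangements, in WT and in cKO. How many of all entries reached it was not counted, so it is not a trait of the family. By limma 78.5% of all entries tested passed in either direction in WT and 74% in cKO.

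The size of these changes depends on how the libraries are set against each other. Rescaling libraries by median ratios moved the median of all entries by 0.23 in WT and 0.20 in cKO on the log2 scale, and moved Tcl1 with it, to 1.56 and 1.53. Relative to the median of all entries, Tcl1 was 1.77 higher in WT as deposited and 1.77 after rescaling, and 1.76 under both in cKO. Tcl1b5 was 1.24 above that median in WT and 1.86 in cKO under either scaling. Rescaling divides each library by a single factor, so values relative to the median barely move by construction. Their likeness under both scalings is therefore no check of the rise.

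**Figure D3:**
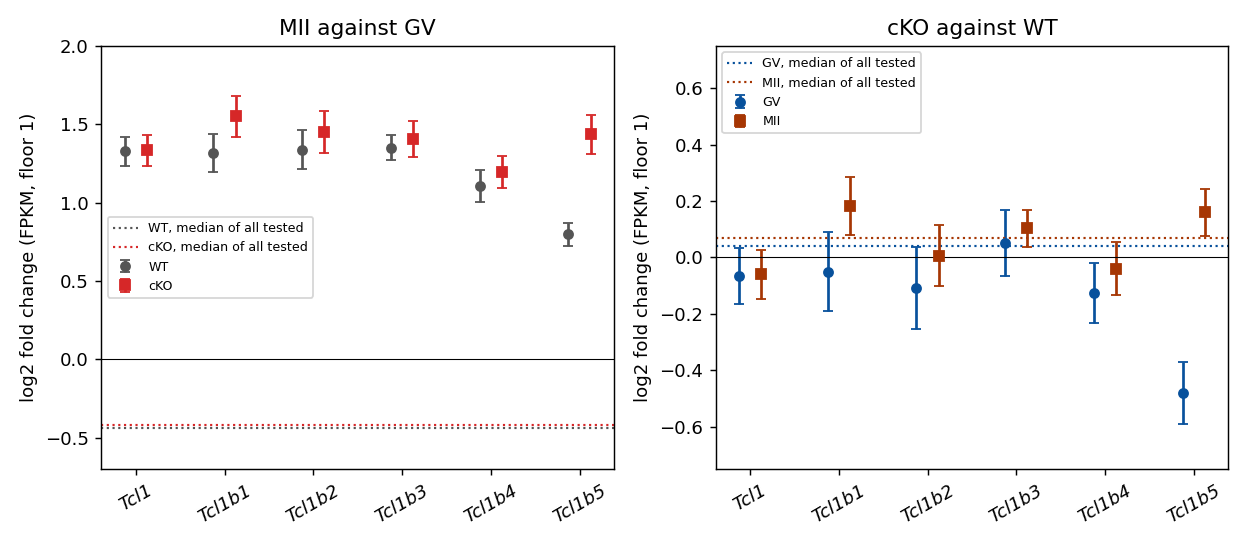
Log2 fold changes of the 6 genes on values floored at 1 FPKM, with standard errors as bars: MII against GV within each genotype (left) and cKO against WT within each stage (right). Dotted lines are medians of all entries tested, −0.44 and −0.42 on the left and 0.04 and 0.07 on the right. All 6 genes rise above the left medians, and Tcl1b5 stands lowest in GV oocytes on the right, at −0.48.

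Between cKO and WT, the ranges of 5 of the 6 genes overlapped at both stages. How many of all entries had ranges apart, between genotypes or between stages, was not counted. In GV oocytes, log2 fold changes of cKO over WT were −0.07 for Tcl1 (SE 0.10), −0.05 for Tcl1b1 (SE 0.14), −0.11 for Tcl1b2 (SE 0.14), 0.05 for Tcl1b3 (SE 0.12) and −0.13 for Tcl1b4 (SE 0.11). By limma 0 of 7 family entries tested passed the adjusted threshold, where 0.118% of all entries did, and 1, Tcl1b5, had an unadjusted p below 0.05, as had 10.7% of all entries. The calls over all entries, 11 higher and 2 lower, ran from 3 and 2 without cKO GV replicates 1 or 4 to 16 and 3 without WT GV replicate 1. Tcl1b5 stood at 72.2% of its WT mean, a log2 fold change of −0.48 (SE 0.11, unadjusted p = 0.00119, adjusted p = 0.124 by limma). Its exact permutation p was 0.0286, the smallest possible. When all 16 libraries shared a single fit, its adjusted p by limma was 0.0276, and 1.42% of all entries passed in that fit.

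In MII eggs the differences were −0.06 for Tcl1 (SE 0.09), 0.18 for Tcl1b1 (SE 0.10), 0.0067 for Tcl1b2 (SE 0.11), 0.10 for Tcl1b3 (SE 0.06), −0.04 for Tcl1b4 (SE 0.09) and 0.16 for Tcl1b5 (SE 0.08) on the log2 scale. By limma 0 of 8 family entries passed the adjusted threshold, where 8.02% of all entries did, and 1, the lower entry of Tcl1b1, had an unadjusted p below 0.05, as had 29.4% of all entries. Among all entries, 620 were higher and 141 lower in cKO MII eggs, and 537 and 223 after rescaling by median ratios. These counts, and so the share of 8.02%, turned on single libraries: without WT MII replicates 1, 2, 3 or 4 they were 12 and 0, 109 and 5, 3 and 0, and 31 and 8. Without cKO MII replicates 1, 2, 3 or 4 they were 166 and 31, 1024 and 136, 287 and 30, and 360 and 58, and in each case 0 family entries passed. A miss of the threshold does not show that the genotypes are alike, and the standard errors above set what could be seen. Of the 10 oocyte markers, 2 passed as higher in cKO MII eggs and 8 did not pass, where 6.53% of all entries were higher. Zp3 averaged 406 FPKM in WT and 948 in cKO (adjusted p = 0.0203 by limma), and Figla 1.60 and 4.96 (adjusted p = 0.0311 by limma). The part of mixed meiotic stages in these values was not tested.

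A criterion without a test, means floored at 1 FPKM and more than 3-fold apart between genotypes, took 0 of 10 family entries in GV oocytes and in MII eggs, against 0.0245% and 0.591% of all entries. A fall of more than 10-fold from WT GV oocytes to WT MII eggs was found in 0 of 10 as well, against 1.39%. How replicates were combined for the study's own fold cutoff is not given in the sources used here, so this criterion need not be the study's.

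The genotype effect on Tcl1b5 differed between the stages. The genotype by stage interaction was 0.64 on the log2 scale (SE 0.14, adjusted p = 0.0394 by limma), and Tcl1b5 was the call among 7 family entries tested, where 1.26% of all entries passed. Over all entries the calls, 114 higher and 20 lower, ran from 37 and 4 without cKO GV replicate 3 to 605 and 46 without cKO MII replicate 2. The interactions of the other 5 genes were 0.0077 to 0.23. The call on Tcl1b5 was close to the threshold: it was lost in 16 of 24 other settings, with adjusted p by limma of 0.0209 to 0.118 over all of them. It was lost without any of the 4 WT GV libraries, without cKO GV replicates 1, 2 or 3, without WT MII replicates 1, 3 or 4, and without cKO MII replicates 1 or 4, with adjusted p of 0.0526 to 0.0852 and log2 values of 0.53 to 0.67. Tcl1b5 rested on at least 719 estimated fragments per library, a counting error of 3.7%, and 20.8% of its 50-base windows recur in other members.

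Seen within the family, Tcl1b5 held 3.13% ± 0.362 (SD, n = 4) of the 6 genes' FPKM in WT GV oocytes. It held 2.33% ± 0.130 in cKO GV oocytes, 2.195% ± 0.131 in WT MII eggs and 2.37% ± 0.212 in cKO MII eggs, so WT GV oocytes had the highest share and the other 3 groups were close together. The share of Tcl1b3, its closest relative by sequence, was 16.6% ± 0.599, 18.01% ± 0.586, 17.3% ± 1.52 and 17.8% ± 0.773 in the same groups.

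**Figure D4:**
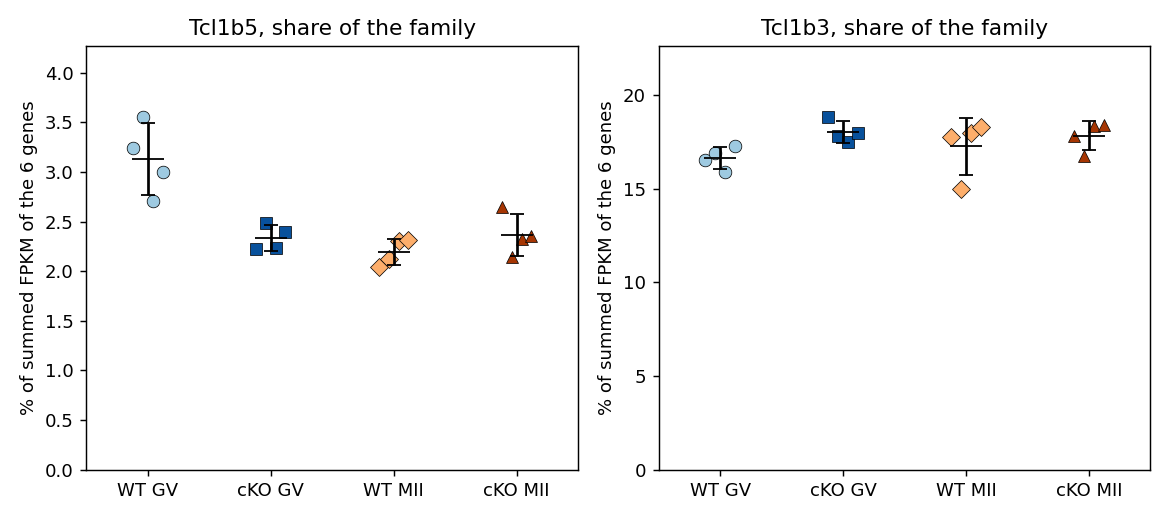
Share of the summed FPKM of the 6 genes held by Tcl1b5 (left) and Tcl1b3 (right), in percent, for each library, with the mean and SD of 4 libraries as bars. The 4 WT GV points of Tcl1b5 average 3.13% and the cKO GV points 2.33%, while the shares of Tcl1b3 lie between 16.6% and 18.01% by group mean.

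The lower entries of the 4 genes with a second entry were far below the higher ones. The second entry of Tcl1b1 averaged 2.33 ± 0.260 FPKM in WT GV oocytes, 2.16 ± 0.914 in cKO GV oocytes, 4.76 ± 1.36 in WT MII eggs and 7.20 ± 1.78 in cKO MII eggs (SD, n = 4). It rose from GV to MII by 0.99 on the log2 scale in WT (SE 0.20) and by 1.82 in cKO (SE 0.32), and passed by limma in both. In MII eggs its cKO to WT difference was 0.61 (SE 0.23, adjusted p = 0.121 by limma), with overlapping ranges. The second entry of Tcl1b3 averaged 0.207 to 1.62 FPKM by group and was tested where its mean reached 1. From GV to MII in WT it differed by 0.53 (SE 0.26, adjusted p = 0.0862 by limma), and between genotypes in MII eggs by −0.35 (SE 0.33, adjusted p = 0.503 by limma). Second entries of Tcl1b2 and Tcl1b5 stayed below a mean of 0.5 FPKM in every group and were not tested.

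Mtcp1 on the X chromosome, the remaining gene of the TCL1 family, was barely detected. It averaged 0.383 ± 0.0878 FPKM in WT GV oocytes, 0.266 ± 0.0276 in cKO GV oocytes, 0.0874 ± 0.0456 in WT MII eggs and 0.0564 ± 0.0445 in cKO MII eggs, below the level at which entries were tested.

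The genes beside the cluster did not share its levels, but the nearest of them, like the family, had higher means in MII eggs in both genotypes. That change was not tested. Gm32062, a lncRNA 8.916 kb before Tcl1b2, averaged 13.1 ± 2.17 FPKM in WT GV oocytes and 26.0 ± 2.06 in WT MII eggs, with 11.7 ± 1.56 and 25.6 ± 2.71 in cKO. Glrx5, a mitochondrial glutaredoxin of iron-sulfur cluster assembly 106.1 kb away, averaged 62.9 ± 9.66 FPKM in WT GV oocytes and 7.67 ± 0.742 in WT MII eggs, with 63.9 ± 4.89 and 16.9 ± 8.03 in cKO. The lncRNA Gm31829 before the cluster and Tunar, Gm2721 and Gm40565 after it had means of at most 0.216 FPKM.

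Across the 16 libraries, the profile of log2 levels closest to the family's mean profile was that of Dut, the dUTPase, with a root mean square difference of 0.0794 on the log2 scale. Rictor, a subunit of the mTORC2 complex that phosphorylates Akt, followed at 0.0848, then Gm1965 at 0.0932, the G-protein regulator Rgs2 at 0.0993 and Lztfl1 at 0.101. Members themselves, which enter the mean, were at 0.0851 (Tcl1b2) to 0.112 (Tcl1b1), and Tcl1b5 at 0.181, while the median of 10608 entries was 0.916. With the lower entries past the filter in the mean profile as well, Dut, Gm1965 and Rgs2 were named again and Rictor and Lztfl1 were not. The libraries fall into 2 stages, and all points of a stage share it, so these values are a description.

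Genes around Akt, the partner of TCL1 proteins, were called both higher and lower during maturation, as entries at large were. Of 34 genes of the pathway, 30 entries were tested in WT, of which 12 passed as higher and 10 as lower by limma, where 26.1% and 52.4% of all entries did. The median log2 fold change was 0.19, against −0.44 over all entries. In cKO 10 of 30 passed as higher and 10 as lower, where 23% and 51% of all entries did, with a median of 0.09 against −0.42. On values floored at 1 FPKM, which understates falls of low entries, the changes of greatest size in WT were falls. First came Rps6, a ribosomal protein phosphorylated downstream of mTOR (−3.33), and Akt1s1, an Akt substrate that restrains mTORC1 (−2.71). Ppp2ca, the catalytic subunit of phosphatase PP2A (−2.05), and Cdc25b, a phosphatase that activates CDK1 (−2.05), followed. In cKO the greatest were falls of Akt1s1 (−3.29), Rps6 (−2.65), the second entry of Pik3cd, a PI3-kinase subunit (−2.26), and Cdc25b (−1.97).

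The kinases Akt1 and Akt2, named after their values were seen, were low beside the family. Akt1 averaged 14.8 ± 3.08 FPKM in WT GV oocytes and 13.0 ± 2.18 in WT MII eggs, and Akt2 3.26 ± 0.439 and 2.35 ± 0.298. Akt2 fell by 0.47 on the log2 scale in WT (adjusted p = 0.0130 by limma), and Akt1 differed by −0.18 (adjusted p = 0.351 by limma).

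Between genotypes, 0 of 31 pathway entries passed in GV oocytes and 1 of 29 in MII eggs by limma, against the 0.118% and 8.02% given above. That entry was the higher entry of Mtor, the kinase of both mTOR complexes. It averaged 2.24 ± 0.166 FPKM in cKO MII eggs and 3.08 ± 0.187 in WT MII eggs (log2 fold change −0.46, SE 0.12, adjusted p = 0.0477 by limma). The call was lost without any of the 4 WT MII libraries or cKO MII replicates 1, 3 or 4 (adjusted p = 0.0637 to 0.131, log2 −0.50 to −0.43). It was also lost with 1 FPKM added, no filter, the replicate block or all 16 libraries in a fit (adjusted p = 0.0503 to 0.221 by limma). With a floor of 0.1 FPKM, no intensity trend or rescaling it was kept (0.0387 to 0.0474). The second entry of Mtor averaged 0.194 FPKM in cKO MII eggs and 0 in WT MII eggs, below the level tested. In the interaction 0 of 30 pathway entries passed.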

How the data were processed

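RNA-seq of 16 libraries, 4 in each of 4 groups, was analysed. The authors deposited FPKM values per entry, made by mapping with TopHat2 2.1.1 to mm10 and quantification with Cufflinks 2.2.1 according to the submitters' processing notes; the gene annotation and read length are not given in the sources used here. ERCC spike-in RNA was added to the lysis buffer, and 0 ERCC entries are in the table, so scaling to it was not used here. Groups, stages and replicate numbers came from the labels, matched to the columns by their names.

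Values below 1 FPKM were set to 1 and log2 transformed, so fold changes of low entries are understated. Entries averaging 1 FPKM or more across the compared libraries entered limma 3.58.1 in R 4.3.3 (empirical Bayes with an intensity trend), on the whole table, with Benjamini-Hochberg adjustment over all entries tested and a threshold of 0.05. Each comparison used its own 8 libraries and the interaction all 16. Single members were also compared with two-sided exact permutation tests of 70 arrangements. The script was tested on simulated data. The labels call the libraries biological replicates, and p-values measure the spread between these pools.

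Named were the 6 members, Mtcp1, Akt pathway genes past the threshold between genotypes and the 4 of greatest change in maturation, the 3 nearest entries on each side of the cluster, the 5 entries of closest profile and Psma7. The members and lists were chosen with earlier results of these data known. Samples with the same replicate number did not deviate together (correlations −0.496 to 0.285), so numbers were not taken as pairs. Gene models and transcripts came from GENCODE M21 and promoter windows from RefSeq, read with Python 3.11.15, pandas 2.3.3, numpy 2.4.6 and Biopython 1.88. Figures were drawn with matplotlib 3.10.9. Depth was estimated from the steps of low FPKM values over 3727 entries, and counting errors cover counting only. Fragments per entry were estimated with the length of each gene's GENCODE transcript, which may not be that of the entry. Alternatives were other floors and filters, moderation without a trend, rescaling by median ratios, a replicate block, a fit of all 16 libraries, entries summed by name, other folds and each library left out in turn. A mean profile over more member entries was added after seeing the data.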

Additional observations from a re-analysis of the deposited data

Results flagged for a closer look

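The difference between the genotype effects on Tcl1b5 at the 2 stages, 0.64 on the log2 scale, passed the interaction test (limma with Benjamini-Hochberg adjustment, adjusted p = 0.0394), and the limits on it stand in the text above.

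In 6 of 40 sets of 4 libraries, 1 library stood apart from the other 3 by Dixon's criterion. For normally spread values chance meets it in about 1 in 20 sets. That rate need not hold near 0 FPKM, where a single value beside zeros always stands apart. The 6 of 40 sets are therefore not an excess over it. All 6 were lower entries. For the second entry of Tcl1b3, WT GV replicate 4 stood apart at 1.61 FPKM and cKO MII replicate 1 at 2.22 FPKM. For the second entry of Tcl1b5 they were WT GV replicate 1 at 0.188, cKO GV replicate 4 at 0.0913 and WT MII replicate 3 at 1.21 FPKM, beside values at or near 0. For the second entry of Tcl1b1, cKO MII replicate 2 stood apart at 9.85 FPKM. By estimated depth and the length of the gene's annotated transcript, no second entry of Tcl1b2, Tcl1b3 or Tcl1b5 exceeded 34 fragments in any library. The true length behind a second entry is not known, so this value is rough. No higher entry had a library that stood apart.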

How the results depend on the processing

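The rise of the 6 genes from GV oocytes to MII eggs passed the limma threshold in WT and in cKO under each of the 17 alternatives, with 7 or 8 family entries called in WT and 7 in cKO when a library was left out. The calls between genotypes were 0 in both stages, except 1 in GV oocytes, Tcl1b5, when all 16 libraries shared a fit. The interaction call, 1 entry, fell to 0 with 1 FPKM added to every value, with no filter, without an intensity trend and with the replicate block (adjusted p for Tcl1b5 = 0.0593 by limma with the block), and was 0 to 1 when a library was left out. The cause was not tested. Without a filter most residual variances were 0, so that fit is unreliable.

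Small differences changed sign. Under rescaling by median ratios the genotype difference of Tcl1b2 in MII eggs became −0.062 and the interaction of Tcl1 −0.022. With libraries left out, log2 differences between genotypes ran in GV oocytes from −0.136 to 0.076 for Tcl1b1, −0.446 to 0.089 for its second entry, −0.185 to 0.0096 for Tcl1b2 and −0.020 to 0.149 for Tcl1b3. In MII eggs they ran from −0.072 to 0.083 for Tcl1b2 and −0.088 to 0.024 for Tcl1b4. In the interaction they ran from −0.050 to 0.058 for Tcl1, −0.0029 to 0.192 for Tcl1b2 and −0.046 to 0.123 for Tcl1b3. The block changed no other call on the 6 genes.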
